A study of Mus musculus with 13 samples.

Results

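The 36 genes described here run the cell division cycle and the copying of DNA, and their chromatin was followed in mouse macrophages that had been given IFNγ, IL-4 or both. They were picked by name and function, with earlier results of these data known. They are 15 regulators of G1, 10 genes of DNA replication and 11 genes of mitosis, out of 21887 protein-coding genes of the annotation. A member's value in a library is the sum of the ChIP reads of all islands, meaning stretches called as enriched, that touch the gene or 1 kb on either side of it. All 36 had an island in at least 6 of the 13 libraries, and 30 had one in every library; 14658 protein-coding genes had one in any library.

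The mark measured was acetylation of lysine 27 of histone H3 (H3K27ac), which sits at active promoters and enhancers, by chromatin immunoprecipitation and sequencing with the antibody ab4729. The cells were bone marrow-derived macrophages of C57BL/6 mice on day 7 of differentiation in medium with L929-conditioned medium, a source of the growth factor CSF1. In the cytokine experiment, 7 libraries came from untreated cells and from cells treated for 2 h or 4 h with IFNγ at 100 ng/ml, with IL-4 at 10 ng/ml or with the 2 combined; no shRNA is named for them. In the knockdown experiment, 6 libraries came from scramble, shJunB and shCEBP-beta cells, each left untreated or given IFNγ (100 ng/ml) for 4 h. Every condition had 1 library, so a single pair of libraries could not be set against a spread between replicates. JunB and CEBP-beta are transcription factors, and acetylation at their own genes does not check the knockdown. Whole-island values were 5319.6 and 7062 normalised reads over Junb in shJunB cells without and with IFNγ and 6233 and 6446 in scramble cells, and 2976 and 12204 over Cebpb in shCEBP-beta cells against 3014 and 4655 in scramble cells.

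In G1 a cell decides whether to divide: D-type cyclins with Cdk4 or Cdk6, and E-type cyclins with Cdk2, phosphorylate the retinoblastoma protein and so release E2F factors, while Cdkn1a (p21), Cdkn1b (p27) and Cdkn2c (p18) hold these kinases back. E2F factors switch on the genes of replication, among them the Mcm helicase, the sliding clamp Pcna and the enzymes that make nucleotides. Mitotic genes are read later in the cycle, through CCAAT boxes and a short element named CHR (cell cycle genes homology region) bound by the DREAM, B-Myb and FoxM1 complexes. Macrophages grown in CSF1 divide, and IFNγ is known to hold such cells in G1.

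Reads in islands ranged from 10120199 in scramble cells with IFNγ to 29532678 in cells given both cytokines for 4 h. The called length was 176 to 206 Mb per cytokine-experiment library, against 218 to 244 Mb per knockdown-experiment library. Counts scaled by size factors (median of ratios) are called normalised reads. The 7 macrophage markers (such as Csf1r and Adgre1) had an island in every library, with 38024 to 56669 normalised reads in sum. The 4 fibroblast markers summed to 0 to 51.8 with 3 never called, the 5 neutrophil markers to 90.0 to 1941 with 3 never called (S100a9, Mpo, Ly6g), the 3 progenitor markers to 0 to 689 and the 3 erythroid markers to 134 to 454. The 5 T cell markers summed to 935 to 3131 and the 4 B cell markers to 1205 to 7402, with Cd3g and Pax5 never called. In such bulk material fewer cells carrying a mark and less mark per cell cannot be told apart.

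Called acetylation was longest over the G1 regulators. On the scale of normalised reads per kb of called island, with each gene's median over its libraries, the median G1 regulator stood at 98.2, the median replication gene at 75.4 and the median mitotic gene at 62.4, beside 84.0 for all genes with an island. Called length was 14.2 kb, 4.6 kb and 4.0 kb for the 3 groups in the median, and 6.2 kb for all genes. Cdkn1a had the highest level per kb, 184, followed by E2f2, an E2F activator, at 148, and the mitotic cyclin Ccnb1 had the lowest, 36.4. Cdk6 carried the longest called stretch, 82.8 to 109 kb, and 5707 to 12754 normalised reads, all of it over its long gene body. These levels describe the libraries and were not tested. The 6 members that lacked an island somewhere were Tyms (called in 10 libraries), Ccne2 (9), Top2a (10), Bub1 (12), Rrm2 (6) and Ccnb2 (11); a missing island means below the calling threshold, not 0.

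**Figure D1:**
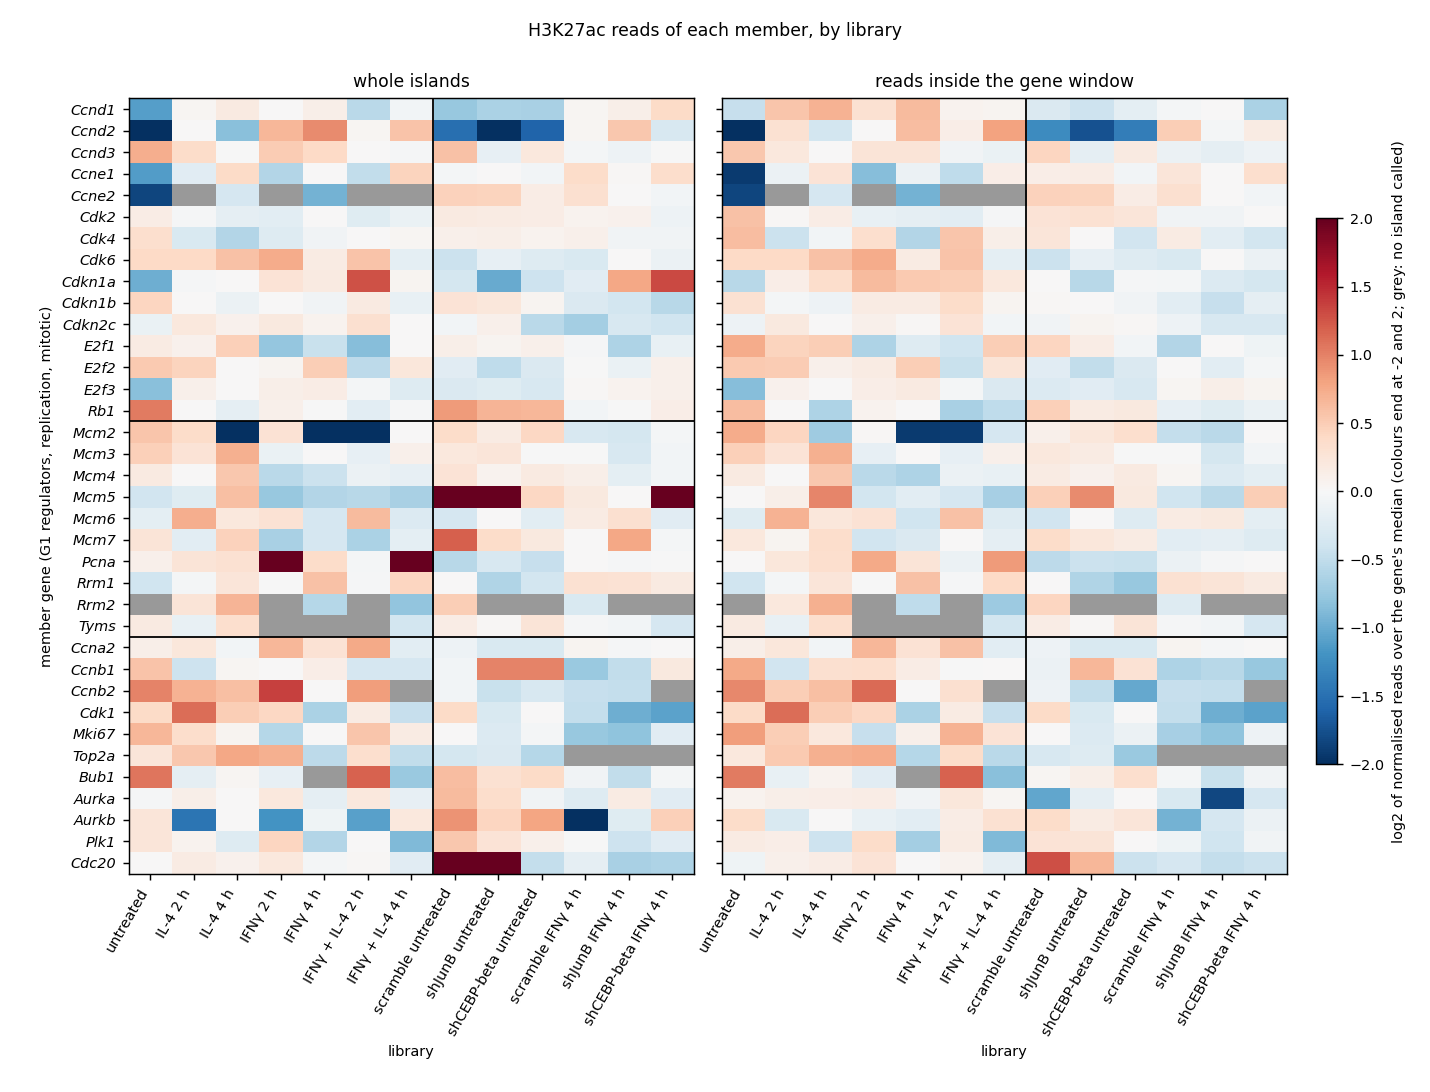
Each row is 1 member and each column 1 library; colours give the log2 of normalised H3K27ac reads over that gene's median across libraries, ending at -2 and 2, with grey where no island was called. The left panel counts whole islands and the right panel the share of each island inside the gene window; black lines part the 3 groups of members and the 2 experiments, and Mcm5, Pcna and Mcm2 reach the ends of the colour scale on the left more often than on the right.

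The direct comparison of IFNγ for 4 h with no treatment could be tested, because it was made once in each of 4 backgrounds: cytokine-experiment, scramble, shJunB and shCEBP-beta cells. Acetylation rose with IFNγ over the cyclin D genes Ccnd1 and Ccnd2, the inhibitor Cdkn1a, the clamp Pcna and the nucleotide enzyme gene Rrm1. It fell over the mitotic genes Cdk1, Ccnb1, Plk1 and Mki67, over Rb1 and over the inhibitor Cdkn1b. Of 31 members tested by edgeR's quasi-likelihood test, 5 rose and 6 fell, beside 33.1% of all 11849 genes tested (15.3% higher, 17.8% lower). The count over all members is close to that background. By role there were 3 higher and 2 lower of 15 G1 regulators, 2 higher and 0 lower of 8 replication genes, and 0 higher and 4 lower of 8 mitotic genes. The median log2 fold change was -0.03 over G1 regulators, -0.32 over replication genes and -0.72 over mitotic genes, and -0.02 over all genes. Differences between the roles were not tested, and members were chosen with earlier results known. Rrm2, Tyms, Ccnb2, Top2a and Bub1 lacked an island in a library of this fit and were not tested. Among the cell type markers edgeR called 1 of 7 macrophage markers higher with IFNγ (Itgam), 2 of 3 tested T cell markers (Cd28, Cd3d) and 1 tested erythroid marker (Klf1) lower and 0 of 2 tested B cell markers, and the part of such cells in the members' results was not tested. The 4 backgrounds are not replicates of 1 condition. The p-values set the mean change with IFNγ against how far the backgrounds disagree on it. With 1 background left out, edgeR called 10 members without the cytokine-experiment pair (30.5% of all genes), 4 without scramble (12%), 2 without shJunB (12%) and 3 without shCEBP-beta (11.1%); Cdk1 was among them each time.

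An island can run past a gene into its neighbours, so each result was also computed with an island's reads divided in proportion to the part inside the gene window, which assumes even coverage along the island. On that count 9 of 31 members were called, beside 30.8% of all genes. Cdk1, Ccnb1, Rb1, Ccnd2, Rrm1 and Pcna were called both ways; Ccnd1, Cdkn1a, Cdkn1b, Plk1 and Mki67 were not called inside the window, and Aurkb, Mcm7 (both lower) and E2f3 (higher) were called there but not on whole islands. Without a test, 12 members with an island in all 8 libraries had treated and untreated libraries that did not overlap, 5 higher and 7 lower, beside 33.4% of all genes. Inside the window 11 did, 3 higher and 8 lower, beside 28.4%.

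**Figure D2:**
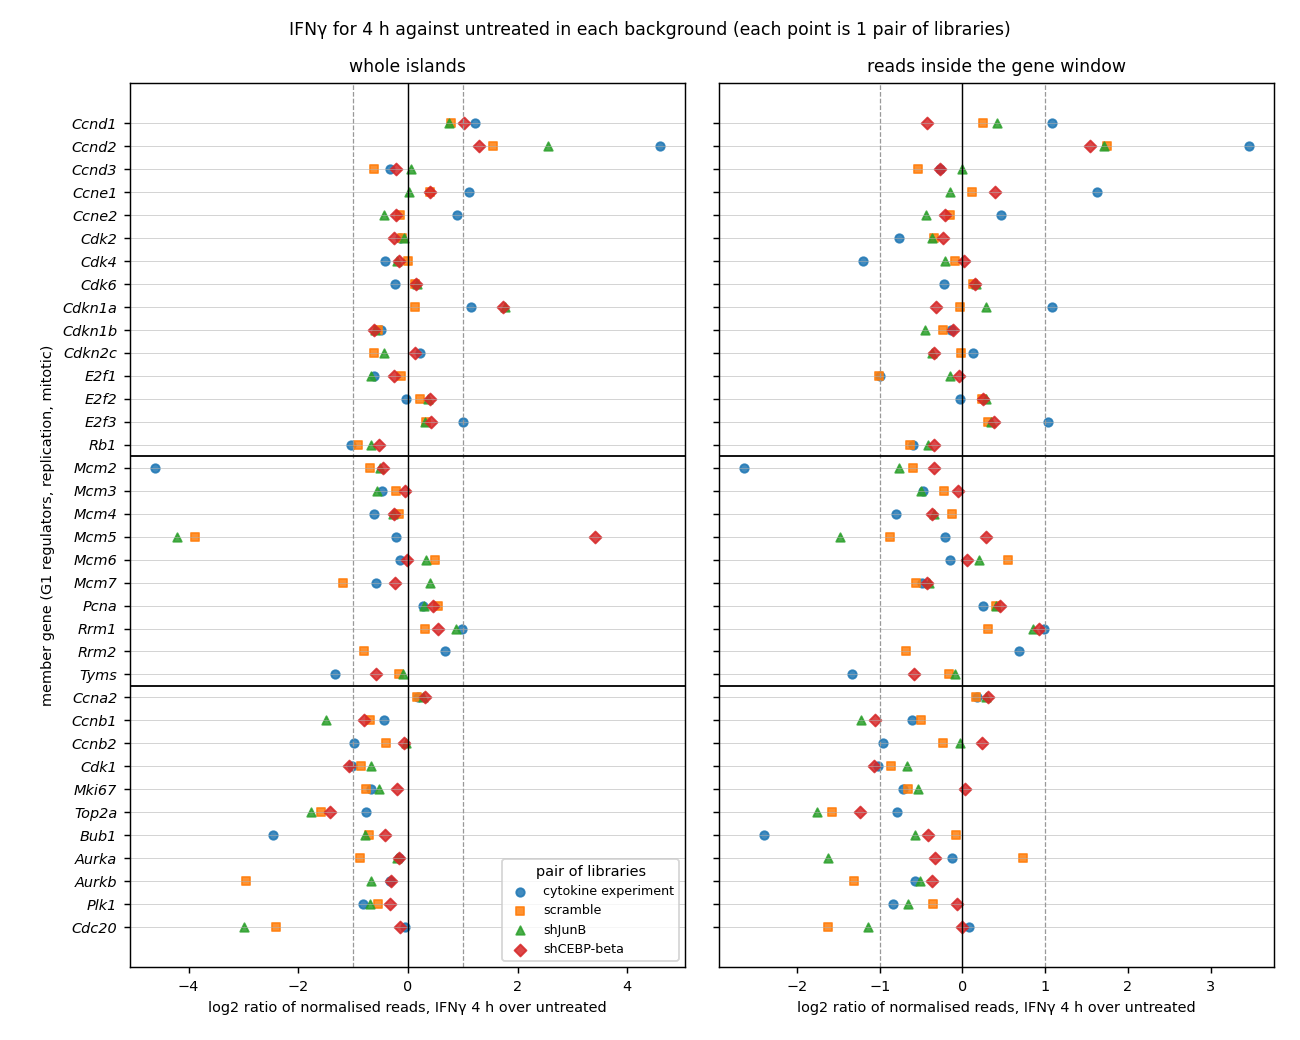
Each point is 1 pair of libraries, giving the log2 ratio of normalised reads after IFNγ for 4 h over untreated cells of the same background (cytokine experiment, scramble, shJunB, shCEBP-beta), for whole islands on the left and for reads inside the gene window on the right; dashed lines mark a 2-fold difference. All 4 points lie above 0 for Ccnd2 and Rrm1 and below 0 for Cdk1 and Rb1 in both panels, while Mcm5 spreads from -4.21 to 3.40 on the left.

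**Figure D3:**
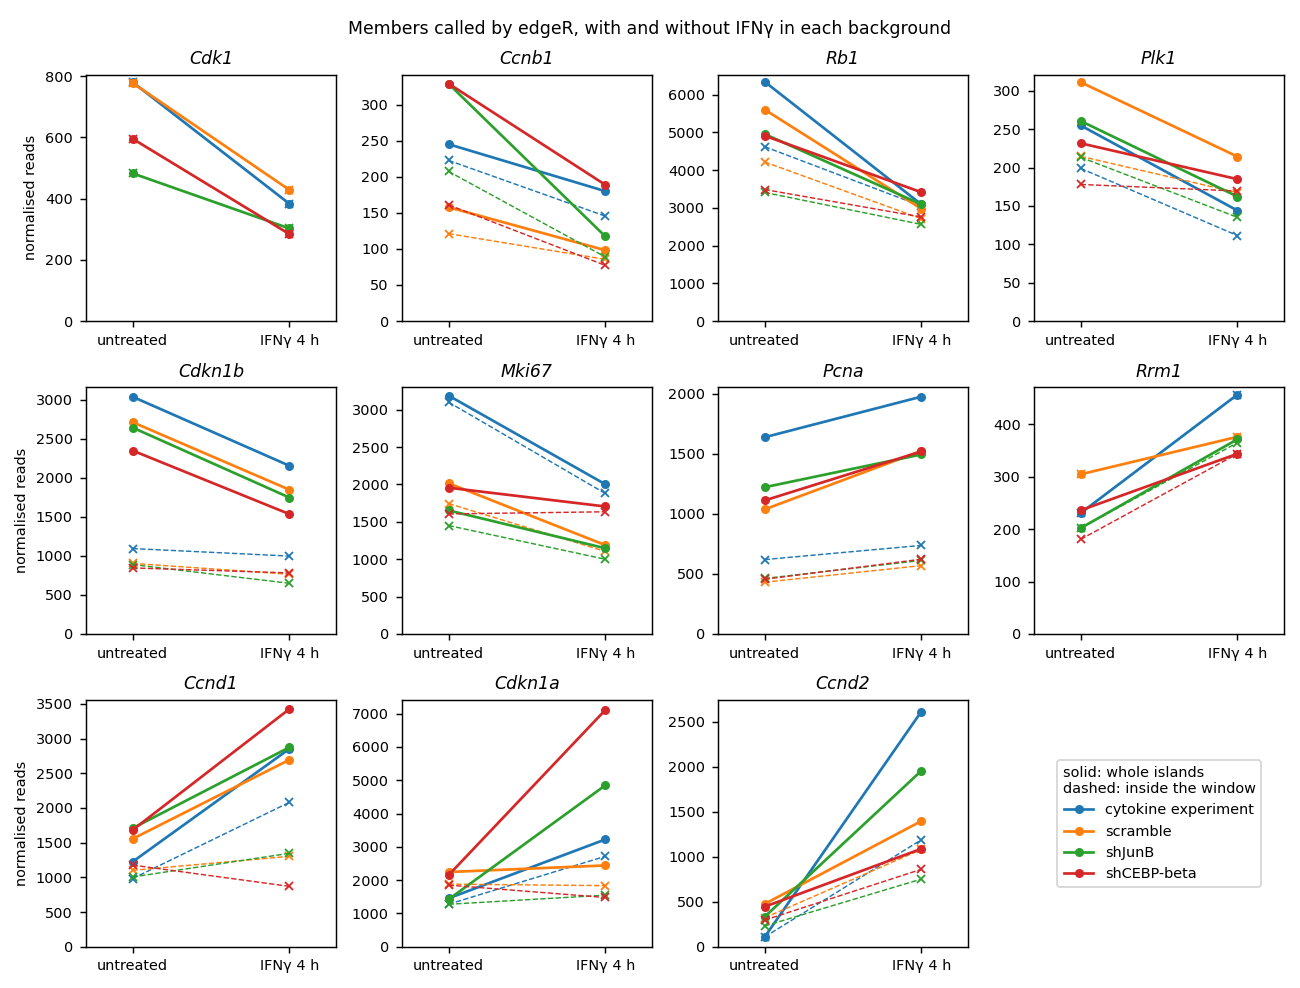
Normalised H3K27ac reads of the 11 members called by edgeR, without and with IFNγ for 4 h, with 1 line per background; solid lines count whole islands and dashed lines the part inside the gene window, and every axis starts at 0. The solid lines of Ccnd1, Ccnd2 and Cdkn1a all go up, from 108 to 2615 for Ccnd2 in the cytokine experiment, and those of Cdk1, Ccnb1, Rb1 and Plk1 all go down.

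Among the G1 regulators, Ccnd1 and Ccnd2 rose with IFNγ and the third cyclin D gene, Ccnd3, was not called. Ccnd2 (chr6:127125162-127152188, GRCm38), which encodes a cyclin that partners Cdk4 and Cdk6, had 108 normalised reads in untreated cells, 1353 and 759 after IL-4 for 2 h and 4 h, 2135 and 2615 after IFNγ, and 1387 and 2004 after both. For Ccnd2 the knockdown experiment gave 476, 333 and 445 normalised reads in untreated scramble, shJunB and shCEBP-beta cells, and 1397, 1956 and 1089 after IFNγ. The untreated library of the cytokine experiment was the lowest of all, with a single island of 2.0 kb, and all libraries with a cytokine were higher than every library without. Its 4 treated and 4 untreated libraries at 4 h did not overlap, and edgeR gave a log2 fold change of 2.42 ± 0.62 (SE), adjusted p = 0.0396. Islands over Ccnd2 were shared with no other gene, and inside its window the log2 fold change was 2.07. The call was lost without the scramble, the shJunB or the shCEBP-beta pair, with adjusted p from edgeR of 0.0242 to 0.117 over the 4 fits that left a pair out.

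Ccnd1 (chr7:144929931-144939831), the cyclin D gene that CSF1 is known to induce in macrophages, had 1224 normalised reads without treatment, 2634 and 2850.1 after 2 h and 4 h of IFNγ, 2716 and 2970.0 after IL-4, and 1822 and 2545 after both cytokines. For Ccnd1 in knockdown cells the values were 1554 and 2693 normalised reads in scramble cells without and with IFNγ, 1707 and 2872 in shJunB and 1681 and 3424 in shCEBP-beta cells. Each IFNγ library at 4 h was above each untreated one, and edgeR gave a log2 fold change of 0.95 ± 0.13 (SE), adjusted p = 0.0101. The call was lost without the shCEBP-beta pair, at an adjusted p of 0.0521 by edgeR. Its islands were shared with LTO1 in every library; in shCEBP-beta cells with IFNγ the island reached 46.8 kb, against 13 to 25.4 kb in the other libraries. Inside the gene window that library was below its untreated pair, with 871 against 1177, the groups overlapped and Ccnd1 was not called.

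Cdkn1a (chr17:29090979-29100722) encodes p21, an inhibitor of cyclin-dependent kinases. Cdkn1a had 1454 normalised reads in untreated cells, 2801 and 2850.5 after IL-4 for 2 h and 4 h, 3462 and 3223 after IFNγ, and 6917 and 2948 after both. In the knockdown experiment the values for Cdkn1a were 2245, 1423 and 2150.2 normalised reads in untreated scramble, shJunB and shCEBP-beta cells, and 2443, 4848 and 7112 after IFNγ. The treated libraries at 4 h were all above the untreated ones, with edgeR giving a log2 fold change of 1.20 ± 0.32 (SE), adjusted p = 0.0435. The 3 highest values belong to libraries whose island over Cdkn1a ran on to 26.6, 32.6 and 52.0 kb, where the others measured 11.4 to 13.8 kb. Inside the window Cdkn1a was higher with IFNγ in 2 of 4 backgrounds and was not called, with 2717 against 1278 normalised reads in the cytokine experiment and 1836 against 1881 in scramble cells. The call on whole islands was lost without the cytokine-experiment, the shJunB or the shCEBP-beta pair, with edgeR's adjusted p at 0.0343 to 0.139 over the 4 fits.

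Rb1 (chr14:73192858-73325951) encodes the retinoblastoma protein, the brake that cyclin-dependent kinases release. Rb1 had 6347 normalised reads without treatment, 3312 and 3093 after 2 h and 4 h of IFNγ, 3099.9 and 2749 after IL-4, and 2688 and 3044 after both cytokines. For Rb1 in knockdown cells there were 5608 and 2978 normalised reads in scramble cells without and with IFNγ, 4958 and 3094 in shJunB and 4914 and 3415 in shCEBP-beta cells. The 4 libraries without a cytokine were the 4 highest of the 13, and edgeR gave a log2 fold change of -0.79 ± 0.13 (SE), adjusted p = 0.0143. IL-4 libraries lay as low as IFNγ libraries. Islands over Rb1 were shared with Lpar6 in every library, and the called stretch measured 73.0 to 89.6 kb in untreated cells and 37.8 to 71.8 kb in treated ones. Inside the window the 4 h groups still did not overlap, with a log2 fold change of -0.50 that edgeR called. Without the scramble or the shJunB pair the call was lost, with edgeR's adjusted p at 0.0229 to 0.0634.

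Cdkn1b (chr6:134920401-134925525) encodes p27, the inhibitor typical of resting cells. Cdkn1b had 3037 normalised reads in untreated cells, 2274 and 2078 after IL-4 for 2 h and 4 h, 2251 and 2154 after IFNγ, and 2559 and 2024 after both. For Cdkn1b the scramble, shJunB and shCEBP-beta libraries held 2712, 2642 and 2348 normalised reads untreated and 1847, 1747 and 1535 with IFNγ. Each IFNγ library at 4 h was below each untreated library, and edgeR gave a log2 fold change of -0.56 ± 0.10 (SE), adjusted p = 0.0176. Its islands, shared with no other gene, measured 12.6 to 21.4 kb. Inside the window the groups overlapped, with 648 to 997 against 845 to 1093 normalised reads, and Cdkn1b was not called. Without the scramble, the shJunB or the shCEBP-beta pair the call was lost too, with edgeR's adjusted p at 0.0184 to 0.0803.

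The E-type cyclins bring cells into S phase with Cdk2. Ccne1 had 118 normalised reads without treatment, 170.1 and 254 after 2 h and 4 h of IFNγ, 218 and 333 after IL-4, and 180.3 and 348 after both cytokines. For Ccne1 in knockdown cells the values were 249 and 327 normalised reads in scramble cells without and with IFNγ, 255 and 259.8 in shJunB and 246 and 323 in shCEBP-beta cells. The untreated library of the cytokine experiment was the lowest of the 13. It had no island over the annotated start of Ccne1 and held 50.8 normalised reads inside the window. All 2-fold calls of Ccne1 given below use that library. Ccne2 had 42.5 normalised reads in untreated cells, 119.5 after IL-4 for 4 h and 78.8 after IFNγ for 4 h, and no called island after IL-4 for 2 h, IFNγ for 2 h or both cytokines. For Ccne2 the knockdown libraries held 209, 206 and 168 normalised reads untreated and 188, 151 and 145 with IFNγ. Every knockdown library was above every cytokine-experiment library. Neither gene was called for IFNγ at 4 h.

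The other G1 regulators were not called for IFNγ. Cdk2 kept to 1022 to 1377 normalised reads, Cdk4 to 799.7 to 1511, Ccnd3 to 1969 to 3651, Cdkn2c to 802 to 1606 and E2f2 to 2328 to 4785. E2f3, an E2F activator, stood at 921 to 1396 in the 4 untreated libraries and 1685 to 1839 in the 4 treated ones, without overlap, at a log2 fold change of 0.51 ± 0.16 (SE), adjusted p = 0.0600 by edgeR. E2f1 showed the reverse, at 588 to 636 untreated and 371 to 558 treated, at a log2 fold change of -0.42 ± 0.13 (SE), adjusted p = 0.0588 by edgeR. Both missed the threshold on whole islands.

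Beyond the members, 29 other genes of G1 and growth control were set beside them, of which 28 could be tested: 5 rose with IFNγ and 4 fell, beside the 15.3% and 17.8% of all genes given above. Cdc25a, a phosphatase that activates cyclin-dependent kinases, rose by 2.81 ± 0.59 (SE, adjusted p = 0.0251) and the pocket protein gene Rbl1 (p107) by 2.13 ± 0.27 (SE, adjusted p = 0.00887) on the log2 scale (edgeR). Skp2, part of the ligase that destroys p27, fell by 1.61 ± 0.23 (SE, adjusted p = 0.0109) (edgeR). These are whole-island values. Islands of Rbl1 touched Samhd1 or Mroh8 and those of Cdc25a touched Map4 in some libraries, and those of Skp2 touched Lmbrd2 in every library. Inside the window Cdc25a and Rbl1 were still called higher and Skp2 lower. The list's median log2 fold change was 0.03.

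Among the replication genes Rrm1 and Pcna rose, while 5 of the 6 Mcm genes had log2 fold changes below 0 that did not pass the test. Rrm1 (chr7:102441695-102469771) encodes the large subunit of ribonucleotide reductase, which makes deoxynucleotides. Its promoter is shown because Rrm1 was called both ways and its islands touched no other gene: chr7:102441445-102441694, plus strand, 5′ to 3′ up to the annotated start (RefSeq, GRCm38.p6), with CCAAT boxes and an E2F core motif in capitals.
Rrm1: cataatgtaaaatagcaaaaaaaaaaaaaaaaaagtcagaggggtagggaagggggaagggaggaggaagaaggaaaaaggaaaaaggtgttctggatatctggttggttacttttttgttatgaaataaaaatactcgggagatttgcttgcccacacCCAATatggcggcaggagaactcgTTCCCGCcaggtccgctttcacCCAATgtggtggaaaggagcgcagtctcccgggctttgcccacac

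Rrm1 had 231 normalised reads in untreated cells, 296 and 361 after IL-4 for 2 h and 4 h, 304 and 457 after IFNγ, and 299 and 409 after both. For Rrm1 in knockdown cells there were 305, 202 and 236 normalised reads in untreated scramble, shJunB and shCEBP-beta cells, and 376, 372 and 344 after IFNγ. The 4 h IFNγ libraries were above the untreated ones in each background and as groups, with edgeR giving a log2 fold change of 0.68 ± 0.14 (SE), adjusted p = 0.0248. Its called stretch was 2.0 to 5.8 kb in the untreated libraries and 5.6 to 8.4 kb in the treated ones, so on the scale of reads per kb of called island Rrm1 stood at 76.9 and 71.4 in the cytokine experiment and at 101 and 44.2 in shJunB cells, untreated and treated. The call was lost without the cytokine-experiment, the shJunB or the shCEBP-beta pair, with edgeR's adjusted p at 0.0435 to 0.0849. The island over the annotated start of Rrm1 changed less than the whole sum. It held 231 and 273 normalised reads in the cytokine experiment, untreated and treated, 240 and 280 in scramble and 202 and 225 in shJunB cells. In shCEBP-beta cells that island fell, from 236 to 193.

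Pcna (chr2:132249286-132253180) encodes the clamp that holds polymerases on DNA. Pcna had 1639 normalised reads without treatment, 11289.7 and 1977 after 2 h and 4 h of IFNγ, 1817 and 1882 after IL-4, and 1489.6 and 12439 after both cytokines. For Pcna in knockdown cells the values were 1038 and 1525 normalised reads in scramble cells without and with IFNγ, 1222 and 1495 in shJunB and 1112 and 1520.0 in shCEBP-beta cells. The IFNγ library was the higher in each of the 4 pairs at 4 h, though the groups overlapped, and edgeR gave a log2 fold change of 0.39 ± 0.11 (SE), adjusted p = 0.0445. Islands over Pcna always reached Cds2 and Tmem230, and the 2 values above 10000 come from islands of 63.4 and 65.4 kb, where the others measured 14.2 to 15.8 kb. Inside the window those libraries held 1050 and 1121 normalised reads, the highest of the 13 still, against 431 to 781 in the others. Without the scramble, the shJunB or the shCEBP-beta pair the call was lost, with edgeR's adjusted p at 0.0457 to 0.158.

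The Mcm genes encode the subunits of the ring that unwinds DNA. In edgeR's IFNγ fit the log2 fold changes were -0.33 for Mcm3, -0.32 for Mcm4, 0.16 for Mcm6, -0.40 for Mcm7, -1.35 for Mcm2 and -1.59 for Mcm5, and none passed. Mcm2 had 2395 normalised reads in untreated cells, 2105 and 262 after IL-4 for 2 h and 4 h, 1997 and 98.3 after IFNγ, and 109.6 and 1635 after both. For Mcm2 in knockdown cells there were 2117, 1826 and 2187 normalised reads in untreated scramble, shJunB and shCEBP-beta cells, and 1312, 1278 and 1588 after IFNγ. The 3 lowest libraries had islands of 1.6 to 2.8 kb over Mcm2 and the others 9.0 to 15 kb, reaching Tpra1. Inside the window Mcm2 stood at 392 to 606 normalised reads in the 4 untreated libraries and 97.0 to 364 in the 4 h IFNγ libraries, without overlap, and was still not called. Mcm5 had 141 normalised reads without treatment, 109 and 122 after 2 h and 4 h of IFNγ, 155 and 278 after IL-4, and 125 and 116 after both cytokines. For Mcm5 in knockdown cells the values were 3071 and 209 normalised reads in scramble cells without and with IFNγ, 3387 and 183 in shJunB and 243 and 2571 in shCEBP-beta cells. The 3 values above 2000 come from islands of 30.4 to 41.6 kb that join Mcm5 to Hmox1, the heme oxygenase gene, and inside the window Mcm5 ranged only from 88.6 to 278. Mcm7 inside the window stood at 304 to 348 untreated and 223 to 239 treated at 4 h, without overlap, with a log2 fold change of -0.47 called by edgeR there but not on whole islands. Mcm3, Mcm4 and Mcm6 ranged from 178 to 360.5, 206 to 438 and 458 to 964 normalised reads over all libraries.

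**Figure D4:**
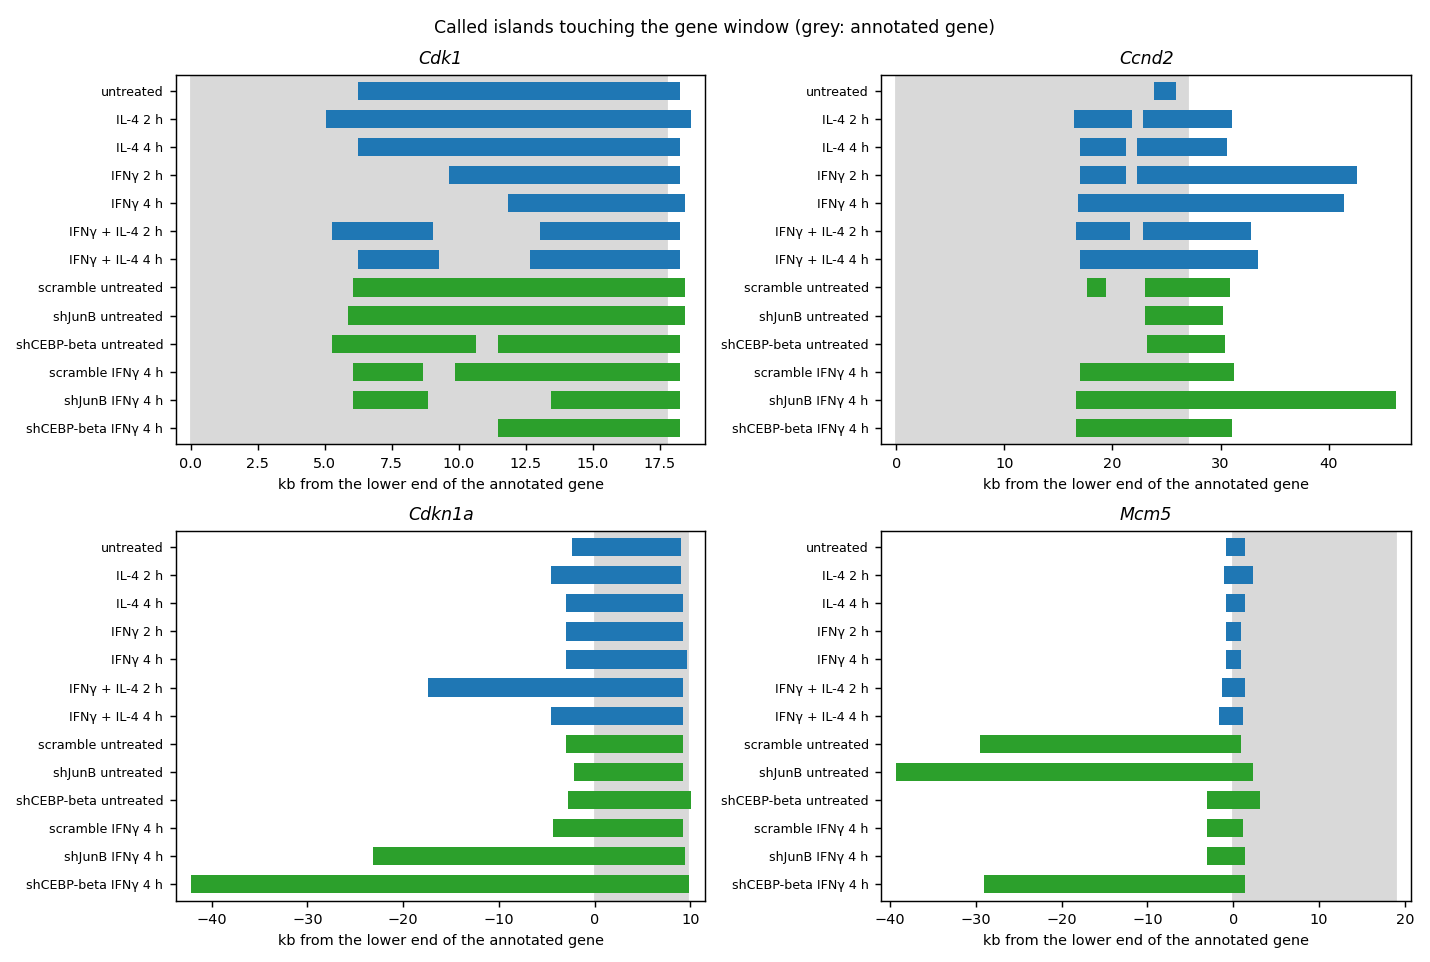
Each bar is a called island that touches the gene window of Cdk1, Ccnd2, Cdkn1a or Mcm5, 1 row per library (blue for the cytokine experiment, green for the knockdown experiment), in kb from the lower end of the annotated gene shaded in grey. Cdk1 islands cover 12.0 kb in untreated cells and 6.6 kb after IFNγ for 4 h, Ccnd2 islands 2.0 and 24.6 kb, and islands of Cdkn1a and Mcm5 run far outside the gene in a few libraries.

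Rrm2 and Tyms, both needed to make the building blocks of DNA, were often not called. Rrm2 had 162 and 217 normalised reads after IL-4 for 2 h and 4 h, 91.5 after IFNγ for 4 h and 78.9 after both cytokines for 4 h, and no island in untreated cells or after IFNγ alone or both cytokines for 2 h. In scramble cells Rrm2 had 190.2 without and 109.6 with IFNγ, and no island in shJunB or shCEBP-beta cells in either state. Tyms ranged from 73.6 to 120.5 and lacked an island after IFNγ for 2 h and 4 h and after both for 2 h. Of 39 other replication genes 36 could be tested, of which 3 rose and 4 fell with IFNγ, beside 15.3% and 17.8% of all genes. Lig1, the ligase that joins Okazaki fragments, rose by 1.67 ± 0.10 (SE, adjusted p = 0.00433) on the log2 scale (edgeR). Rfc2, a clamp loader subunit, fell by 1.94 ± 0.36 (SE, adjusted p = 0.0188) and Gins2, part of the replicative helicase, by 1.35 ± 0.13 (SE, adjusted p = 0.00605) (edgeR). On these whole-island values, Lig1 shared islands with Zswim9 in every library and Rfc2 with Eif4h, Lat2 or Syna in some. Gins2 shared none. Inside the window Lig1 was still called higher, and Rfc2 and Gins2 lower. The list's median log2 fold change was -0.07.

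Among the mitotic genes all 4 called members fell. Cdk1 (chr10:69335146-69352912) encodes the kinase that starts mitosis and Ccnb1 (chr13:100778739-100786486) its cyclin. Their promoters are shown because both genes were called on whole islands and inside the window, and those of Plk1 and Mki67 because they complete the 4 called members. Each is the 250 bases before the annotated start, 5′ to 3′ on the gene's strand (RefSeq, GRCm38.p6), with CCAAT boxes, CHR elements and E2F core motifs in capitals. Cdk1 is at chr10:69352913-69353162, Ccnb1 at chr13:100786487-100786736 and Mki67 at chr7:135716380-135716629, all on the minus strand, and Plk1 at chr7:122159185-122159434 on the plus strand.
Cdk1: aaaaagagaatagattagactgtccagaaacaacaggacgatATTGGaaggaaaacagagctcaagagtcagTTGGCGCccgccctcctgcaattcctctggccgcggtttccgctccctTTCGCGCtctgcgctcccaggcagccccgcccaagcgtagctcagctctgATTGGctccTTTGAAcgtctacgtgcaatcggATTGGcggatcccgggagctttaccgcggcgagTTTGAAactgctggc
Ccnb1: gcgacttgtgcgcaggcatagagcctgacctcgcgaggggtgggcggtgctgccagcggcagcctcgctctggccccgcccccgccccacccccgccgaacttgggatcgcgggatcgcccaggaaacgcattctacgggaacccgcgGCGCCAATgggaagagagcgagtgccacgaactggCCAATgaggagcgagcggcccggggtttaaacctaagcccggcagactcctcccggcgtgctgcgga
Plk1: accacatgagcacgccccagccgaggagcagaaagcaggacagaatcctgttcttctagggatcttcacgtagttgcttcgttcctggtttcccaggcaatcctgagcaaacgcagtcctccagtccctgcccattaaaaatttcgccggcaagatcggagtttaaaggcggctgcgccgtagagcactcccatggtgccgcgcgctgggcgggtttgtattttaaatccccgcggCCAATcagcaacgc
Mki67: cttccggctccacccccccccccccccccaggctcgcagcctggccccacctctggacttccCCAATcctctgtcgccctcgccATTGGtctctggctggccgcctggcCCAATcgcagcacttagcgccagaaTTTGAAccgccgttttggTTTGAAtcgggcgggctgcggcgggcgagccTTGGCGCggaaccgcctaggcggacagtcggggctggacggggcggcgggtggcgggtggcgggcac

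Motifs were searched on both strands, among them the CCAAT box, the CHR letters TTTGAA and E2F core letters. A promoter was counted as holding an E2F core where it had TTCCCGC or the related form TTGGCGC. The other letters accepted as an E2F core were TTGCCGC as well as TTCGCGC in either direction. A CCAAT box occurred in 9 of 9 mitotic promoters in the table, 8 of 9 replication promoters and 4 of 11 G1 promoters, beside 33.8% of all 32851 promoters. CHR letters occurred in 5 of 9 mitotic promoters (Cdk1, Ccnb2, Mki67, Top2a, Cdc20), 1 of 9 replication and 1 of 11 G1 promoters, beside 16.0% of all. An E2F core occurred in 11 of 29 member promoters, beside 7.89%. The Ccnb1 promoter printed above holds no TTTGAA, the only form of CHR searched, and its E2F core overlaps a CCAAT box. These matches describe the letters only. An island covered the annotated start in all 13 libraries for 23 of the 29 members with a promoter entry.

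Cdk1 had 781 normalised reads in untreated cells, 1288 and 839 after IL-4 for 2 h and 4 h, 793 and 383 after IFNγ, and 668 and 431 after both. For Cdk1 the scramble, shJunB and shCEBP-beta libraries held 778, 483 and 596 normalised reads untreated and 429, 303 and 284 with IFNγ. At 4 h each IFNγ library was below each untreated one, and IL-4 for 2 h gave the highest value of all. By edgeR Cdk1 fell, at a log2 fold change of -0.91 ± 0.10 (SE), adjusted p = 0.00711, and it stayed called with any 1 of the 4 pairs left out, with edgeR's adjusted p at 0.0142 to 0.0389. Its islands touched no other gene and lay wholly inside the window. The called stretch was shorter in each treated library of the 4 pairs, at 12.0 and 6.6 kb in the cytokine experiment, 12.4 and 11 kb in scramble, 12.6 and 7.6 kb in shJunB and 12.2 and 6.8 kb in shCEBP-beta cells. On the scale of reads per kb of called island the pairs were closer, at 65.0 and 58.1, 62.8 and 39.0, 38.3 and 39.8, and 48.8 and 41.8.

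Ccnb1, the cyclin B gene, had 245 normalised reads without treatment, 165 and 180.1 after 2 h and 4 h of IFNγ, 123 and 169.6 after IL-4, and 131 and 131 after both cytokines. For Ccnb1 in knockdown cells there were 158, 329 and 329 normalised reads in untreated scramble, shJunB and shCEBP-beta cells, and 98.2, 117 and 189 after IFNγ. Each treated library was below its own untreated pair, but the groups overlapped, at 98.2 to 189 treated and 158 to 329 untreated. By edgeR Ccnb1 had a log2 fold change of -0.85 ± 0.19 (SE), adjusted p = 0.0294. Its islands touched Cenph in some libraries, and inside the window the log2 fold change was -0.85. Without the scramble, the shJunB or the shCEBP-beta pair the call was lost, with edgeR's adjusted p at 0.0346 to 0.0964, and with 10 kb on either side of the gene the sign turned, to 0.16.

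Plk1 (chr7:122159435-122169884) encodes polo-like kinase, which drives entry into mitosis. Plk1 had 255 normalised reads in untreated cells, 227 and 181 after IL-4 for 2 h and 4 h, 289.8 and 144 after IFNγ, and 215 and 116 after both. For Plk1 in knockdown cells the values were 311 and 214 normalised reads in scramble cells without and with IFNγ, 261 and 162 in shJunB and 232 and 185 in shCEBP-beta cells. Treated and untreated libraries at 4 h did not overlap, and edgeR gave a log2 fold change of -0.59 ± 0.11 (SE), adjusted p = 0.0203. The call was lost without the scramble or the shJunB pair, with edgeR's adjusted p at 0.0400 to 0.0758. Mki67 (chr7:135689784-135716450), the source of the proliferation marker Ki-67, had 3189 normalised reads without treatment, 1356 and 2002 after 2 h and 4 h of IFNγ, 2553 and 2076 after IL-4, and 2927 and 2248 after both cytokines. For Mki67 in knockdown cells there were 2016, 1652 and 1956 normalised reads in untreated scramble, shJunB and shCEBP-beta cells, and 1188, 1146 and 1705 after IFNγ. The IFNγ library was the lower in each of the 4 pairs, with overlap between the groups, and edgeR gave a log2 fold change of -0.54 ± 0.14 (SE), adjusted p = 0.0384. Mki67 was not called once any 1 pair was left out, with edgeR's adjusted p at 0.0663 to 0.131.

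Aurkb and Bub1 act in chromosome attachment, Cdc20 sets off anaphase and Top2a untangles chromosomes. Aurkb had 2567 normalised reads in untreated cells, 786 and 2161 after IL-4 for 2 h and 4 h, 945 and 2042 after IFNγ, and 1023 and 2491 after both. For Aurkb in knockdown cells the values were 4030.1 and 524 normalised reads in scramble cells without and with IFNγ, 2898 and 1827 in shJunB and 3719 and 3010.1 in shCEBP-beta cells. Its islands measured 5.0 to 6.0 kb in the 4 lowest libraries and 17.6 to 39.4 kb in the others, where they took in Borcs6, Ctc1 or Tmem107. Inside the window Aurkb stood at 719 to 827 in the 4 untreated libraries and 333 to 587 in the 4 h IFNγ libraries, without overlap, and edgeR called it lower there but not on whole islands, with a log2 fold change of -0.68. Per kb of called island Aurkb was higher, not lower, after IFNγ for 2 h, with a log2 ratio of 0.82. Cdc20 had 267 normalised reads without treatment, 308 and 259 after 2 h and 4 h of IFNγ, 298 and 284 after IL-4, and 271 and 228 after both cytokines. For Cdc20 in knockdown cells there were 1252, 1358 and 192 normalised reads in untreated scramble, shJunB and shCEBP-beta cells, and 236, 171 and 175 after IFNγ. The 2 values above 1000, in untreated scramble and shJunB cells, come from islands of 14.4 and 12.4 kb that reached Elovl1.

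Bub1 had 237 normalised reads in untreated cells, 99.0 and 114.9 after IL-4 for 2 h and 4 h, 99.9 after IFNγ for 2 h, 253 and 66.9 after both cytokines for 2 h and 4 h, and no island after IFNγ for 4 h. For Bub1 the scramble, shJunB and shCEBP-beta libraries held 173, 138 and 146 normalised reads untreated and 106, 80.0 and 109 with IFNγ. The IFNγ library was the lower in each knockdown pair. Top2a had 273 normalised reads in untreated cells, 336 and 396 after IL-4 for 2 h and 4 h, 378 and 161 after IFNγ, and 291 and 165 after both. In scramble, shJunB and shCEBP-beta cells without treatment Top2a had 180.5, 189.6 and 155 normalised reads, and no island in any of them after IFNγ. So all 4 pairs had the lower value, or no island, with IFNγ. Ccnb2 was lower or not called with IFNγ in each pair too, over a range of 54.8 to 198. Its lowest values were near the calling threshold, and the log2 ratios of its pairs ran from -0.99 to -0.03. In shJunB cells Ccnb2 had 55.9 normalised reads without and 54.8 with IFNγ. Ccna2, the cyclin of S phase and G2, was higher with IFNγ in each pair, over a range of 168 to 349.7. Its log2 fold change was 0.23 ± 0.08 (SE), adjusted p = 0.0855 by edgeR. Aurka ranged from 579 to 1068.

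As a group the mitotic members had a median log2 ratio of -0.67 in the cytokine experiment, -0.76 in scramble, -0.67 in shJunB and -0.31 in shCEBP-beta cells, where a missing island takes the 5th percentile of its library's islands. All genes had medians of 0.02, -0.02, -0.05 and -0.01 in the same pairs. On the scale of reads per kb of called island the mitotic medians were -0.27, 0.21, -0.03 and -6.06e-05, and the mitotic sums and their called lengths move together. Of 32 other mitosis genes 27 could be tested, of which 3 rose and 7 fell with IFNγ, again beside 15.3% and 17.8% of all genes. The kinesin gene Kif23 fell by 1.83 ± 0.35 (SE, adjusted p = 0.0210) and the F-box cyclin gene Ccnf by 1.68 ± 0.16 (SE, adjusted p = 0.00608), while the spindle gene Tpx2 rose by 1.62 ± 0.37 (SE, adjusted p = 0.0305) on the log2 scale (edgeR). On these whole-island values, Kif23 shared islands with Paqr5 or Rplp1 and Ccnf with Tedc2 in some libraries. Tpx2 shared none. Inside the window Kif23 and Ccnf were still called lower and Tpx2 higher. That list's median log2 fold change was -0.20.

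The cytokine experiment also allowed comparisons with the same untreated library at 2 h and 4 h, which therefore share it and have no replicate. Here a member counts as higher or lower when it differs by 2-fold or more and the higher of both libraries reaches 50 normalised reads. A library without an island for a member was given a stand-in value, which differs between libraries. It was 57.1 normalised reads in untreated cells and 42.8 after IFNγ for 4 h. Calls resting on a stand-in are Tyms and Bub1 after IFNγ for 4 h and Rrm2 after IL-4 at 2 h and 4 h. After both cytokines they are Tyms at 2 h and Ccnb2 at 4 h. After IFNγ for 2 h, 4 members were higher (Ccnd1, Ccnd2, Cdkn1a, Pcna) and 3 lower (Mki67, Bub1, Aurkb), beside 29.6% of all genes (15.7% higher, 13.9% lower). At 4 h 4 were higher (Ccnd1, Ccnd2, Ccne1, Cdkn1a) and 5 lower (Rb1, Mcm2, Tyms, Cdk1, Bub1), beside 31.9% (16.8% higher, 15.1% lower). IL-4 for 2 h gave 3 higher (Ccnd1, Ccnd2, Rrm2) and 3 lower (Rb1, Bub1, Aurkb), beside 24.2% (11.3% higher, 12.9% lower). IL-4 for 4 h gave 5 higher (Ccnd1, Ccnd2, Ccne1, Ccne2, Rrm2) and 3 lower (Rb1, Mcm2, Bub1), beside 22.8% (9.77% higher, 13.1% lower). Both cytokines gave 2 higher (Ccnd2, Cdkn1a) and 6 lower (E2f1, E2f2, Rb1, Mcm2, Tyms, Aurkb) at 2 h, beside 30.0% (15.8% higher, 14.2% lower), and 5 higher (Ccnd1, Ccnd2, Ccne1, Cdkn1a, Pcna) and 4 lower (Rb1, Ccnb2, Bub1, Plk1) at 4 h, beside 27.5% (14.9% higher, 12.6% lower). Each of these shares lies near the background.

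Ccnd2 had the highest ratio of the members in all 6 comparisons. The fold for Ccnd2 was 19.8 (95% exact binomial interval 16.0 to 24.7) after IFNγ for 2 h and 24.2 (19.6 to 30.2) at 4 h. After IL-4 it was 12.5 (10.1 to 15.7) at 2 h and 7.03 (5.64 to 8.84) at 4 h, and after both cytokines 12.8 (10.4 to 16.1) and 18.5 (15 to 23.2). Reads carry no molecular identifiers, so these intervals cover counting error only. Inside the window the folds for Ccnd2 ran from 5.56 after IL-4 for 4 h to 12.4 after both cytokines for 4 h. All 6 comparisons use the untreated library, where a single island of 2.0 kb was called over Ccnd2. Over the 13 libraries its called stretch ran from 2.0 to 29.6 kb. Per kb of called island Ccnd2 ranged only from 46.2 to 122 normalised reads.

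Against IFNγ alone, both cytokines at 2 h gave 2 members higher (Mki67, Bub1) and 2 lower (Mcm2, Pcna), beside 10.1% of all genes (4.56% higher, 5.49% lower), and at 4 h 2 higher (Mcm2, Pcna) and 0 lower, beside 16.4% (8.34% higher, 8.05% lower). Mcm2 and Pcna are genes whose islands differ in length between those libraries, and inside the window their log2 ratios were -1.92 and -0.88 at 2 h and 1.56 and 0.60 at 4 h. In an edgeR fit of all 7 libraries with terms for IL-4, IFNγ and time, 0 of 31 members passed for IL-4 (0.0% of all genes). At an unadjusted p under 0.05 in that fit there were 3 members, beside 1724 of all 11655 genes. DESeq2 called 2 for IL-4 (Ccnb1 and Ccnd3, lower, beside 12.1% of all genes). For IFNγ edgeR called 0 of 31 members, beside 6.23% of all genes. Its unadjusted p was under 0.05 for 7 members, beside 3317 of all 11655 genes. DESeq2 called 9, beside 30.6% of all genes. E2f1 had a log2 fold change of -0.83 and Mcm7 of -0.71 for IFNγ in edgeR's fit. For the interaction of both cytokines edgeR called 0 of 31, beside 0.0% of all genes. Its unadjusted p was under 0.05 for 8 members, beside 2418 of all 11655 genes. DESeq2 called 3 (Ccnd2, Ccnd1 and Aurkb, beside 8.01% of all genes). The interaction coefficient for Ccnd2 was -3.77 on the log2 scale in edgeR's fit and did not pass. It cannot be estimated without the single untreated library, which had the lowest Ccnd2 value of all. These fits rest on 7 libraries that are not replicates. For IL-4 and for the interaction edgeR passed no gene of any kind, so a count of 0 there says nothing about whether members differ.

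In the knockdown experiment no member passed edgeR's test for either shRNA. No gene of any kind passed for either, so this says nothing about whether members differ. For shJunB against scramble over both states edgeR called 0 of 31 members, beside 0.0% of all genes. Its unadjusted p was under 0.05 for 2 members, beside 687 of all 11849 genes. DESeq2 called 1 (beside 2.38% of all genes), Cdk1, at a log2 fold change of -0.60. Cdk1 had 483 and 303 normalised reads in shJunB cells without and with IFNγ and 778 and 429 in scramble cells. For shCEBP-beta edgeR called 0 of 31, beside 0.0% of all genes. Its unadjusted p was under 0.05 for 2 members (Cdk1 and Ccnb1), beside 297 of all 11849 genes. DESeq2 called 0 (beside 0.726% of all genes). By the 2-fold rule, untreated shJunB cells had 1 member higher (Ccnb1) and 1 lower (Rrm2) than scramble, beside 7.97% (4.04% higher, 3.93% lower), and 1 higher with IFNγ (Aurkb), beside 7.71% (4.8% higher, 2.92% lower). Untreated shCEBP-beta cells had 1 higher (Ccnb1) and 3 lower (Mcm5, Rrm2, Cdc20), beside 5.92% (3.53% higher, 2.38% lower), and 3 higher with IFNγ (Cdkn1a, Mcm5, Aurkb), beside 5.78% (3.95% higher, 1.83% lower). Inside the window none of the last 3 reached 2-fold, with log2 ratios of -0.31, 0.89 and 0.82. Rrm2 had no island in untreated shJunB or shCEBP-beta cells, so its calls there rest on the stand-in value. For Ccnb1, the island over its annotated start held 158, 185 and 161 normalised reads in untreated scramble, shJunB and shCEBP-beta cells. Inside the window Ccnb1 did not reach 2-fold in untreated shJunB cells against scramble.

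Within each knockdown background the members past 2-fold with IFNγ were counted too: 1 higher (Ccnd2) and 5 lower (Mcm5, Mcm7, Top2a, Aurkb, Cdc20) in scramble cells, beside 19.2% (8.61% higher, 10.6% lower). In shJunB cells 2 were higher (Ccnd2, Cdkn1a) and 4 lower (Mcm5, Ccnb1, Top2a, Cdc20), beside 20.1% (10.3% higher, 9.74% lower). In shCEBP-beta cells 4 were higher (Ccnd1, Ccnd2, Cdkn1a, Mcm5) and 2 lower (Cdk1, Top2a), beside 19.0% (9.37% higher, 9.66% lower). Ccnd2 was higher and Top2a lower in all 3. Top2a had no island after IFNγ in any of these backgrounds, so its calls rest on the stand-in value. Whether the response to IFNγ differs between these backgrounds could not be tested with 1 library for each state.

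Untreated scramble and untreated cytokine-experiment cells differed too, and the shRNA vector and the experiment cannot be told apart there. In that pair 6 members were higher in scramble cells (Ccnd2, Ccne1, Ccne2, Mcm5, Rrm2, Cdc20) and 1 lower (Ccnb2), beside 18.8% of all genes (13.7% higher, 5.13% lower). The islands of Mcm5 and Cdc20 in scramble cells are the long ones described above. Rrm2 had no island in untreated cytokine-experiment cells, so its call rests on the stand-in value. Over both states edgeR called 1 of 31, beside 10.5%: Ccne2 was higher, with a log2 fold change of 1.68 ± 0.34 (SE), adjusted p = 0.0453. The call for Ccne2 was lost without the shJunB or the shCEBP-beta pair, where edgeR called 0 members. Called islands covered more of the genome in the knockdown experiment, as given above, and the median of all genes was 0.12 higher (log2) in that pair; the part of either in the difference was not tested.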

How the data were processed

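H3K27ac ChIP-seq libraries of 13 conditions were used, 1 each. The authors aligned reads with Bowtie2 (2.2.6) to mm10 (GRCm38) and called islands with SICER (1.1), per the submitters' processing notes; order and other settings are not given in the sources used here. Each deposited list gives, per island, the ChIP read count and the control read count. It also holds the authors' p-value and adjusted p-value of ChIP against control, used only to describe the lists. The deposited fold ratio of ChIP over control was used for an alternative scaling of libraries. Control counts were equal at 29680 of 29680 coordinates shared by lists, so control subtraction was an alternative only. No sample column was left unused (0).

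Gene spans came from the RefSeq table of GRCm38.p6, which names no strand for a gene. Reads of islands touching a span with 1 kb either side were summed and divided by median-of-ratios size factors over the 14347 of 39569 union regions called in all libraries. In single pairs a missing island was set to the library's 5th percentile of reads per island, and a gene was called at a difference of 2-fold or more, provided the higher library reached 50 normalised reads. Where several libraries share a factor, edgeR's quasi-likelihood test (4.0.16, R 4.3.3) was fitted on all genes with an island in every library of the fit, with Benjamini-Hochberg adjustment and a threshold of 0.05. One fit held the 8 libraries of 4 backgrounds without and with IFNγ for 4 h, with background as a term; another held the 7 cytokine libraries, with terms for IL-4, IFNγ and time, and with their interaction. The scripts were tested on simulated data.

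Alternatives were depth scaling, TMM, DESeq2 (1.42.0), union regions, division of island reads by the part inside the window, 10 kb windows, reads per kb of called island, control subtraction, no filter or no filling in, and leaving out each pair or library. All 36 members were accounted for; a member called in an edgeR fit or past the 2-fold rule in at least 3 pairs is given in every library. From each of the 3 lists of other pathway genes, the up to 3 called genes with the largest change are named. Members and lists were chosen with earlier results of these data known. Promoters came from RefSeq (GRCm38.p6) for 29 of 36 members; further motifs searched in them are not reported here.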

Additional observations from a re-analysis of the deposited data

How the results depend on the processing

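No paired analysis was possible because each condition had 1 library and the labels give no replicate numbers; this is about replicates, since the IFNγ fit over 4 backgrounds already has background as a term. The calls rest on islands called separately in each library, so a gene's sum moves with the length called, and a missing island is no 0. Depth limits members with few reads, such as Ccne2 at 42.5 normalised reads in untreated cells. Where a value below differs from that in the text, the cause was not tested beyond what the setting itself changes.

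Of 11 members called for IFNγ over 4 backgrounds, edgeR called 17 with union regions (47.1% of all genes) and DESeq2 called 17 (50.8%), and leaving out 1 pair gave 2 to 10; all 11 were among the 17 both times. TMM gave 12 (32.9% of all genes), 10 kb windows 12 (36.9%), depth scaling 9 (30.2%), inside-window reads 9 (30.8%) and no filter 11 (28.2%). For scramble against cytokine-experiment cells the count of 1 (10.5% of all genes) became 5 with union regions (20.6%), 3 inside the window (9.19%) and 3 with 10 kb (10.4%). It became 6 by DESeq2 (32.6%), 0 with no filter (6.83%), 0 without the shJunB pair (1.55%) and 0 without the shCEBP-beta pair (0%). For IFNγ in the cytokine libraries the count of 0 (6.23% of all genes) became 3 with depth scaling (6.41%) and 2 with union regions (11.6%). It became 1 with 10 kb (6.98%) and 9 by DESeq2 (30.6%). DESeq2 also gave 2 for IL-4 (12.1% of all genes), 3 for the interaction (8.01%) and 1 for shJunB (2.38%).

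Per kb of called length, members past 2-fold numbered 1 (IFNγ 2 h), 3 (IFNγ 4 h), 1 (IL-4 2 h), 2 (IL-4 4 h), 2 and 1 (both, 2 h and 4 h against untreated), 2 and 1 (both against IFNγ), 1 in each knockdown background with IFNγ, 2 for untreated scramble against cytokine-experiment cells, 1 and 1 for untreated shJunB and shCEBP-beta against scramble, and 0 and 0 with IFNγ. With union regions they numbered 2 and 0 for both against IFNγ at 2 h and 4 h, 3 in scramble and 3 in shCEBP-beta cells with IFNγ, 4 for untreated scramble against cytokine-experiment cells, 1 and 1 for untreated shJunB and shCEBP-beta against scramble, and 0 and 0 with IFNγ. With 10 kb windows they numbered 2 for both against IFNγ at 2 h, 2, 3 and 3 in scramble, shJunB and shCEBP-beta cells with IFNγ, 1 and 1 untreated against scramble, and 0 and 0 with IFNγ. With control reads subtracted they numbered 12 for IFNγ 2 h, 11 for IL-4 2 h, 10 in scramble cells with IFNγ and 1 for untreated shJunB. Inside the window they numbered 1 for both against IFNγ at 4 h, 0 for shCEBP-beta with IFNγ and 1 for untreated shJunB against scramble. Depth scaling gave 2 for shJunB with IFNγ, and leaving missing islands out gave 1 for untreated shJunB. The counts in this paragraph stand without the share of all genes under the same setting. They show how the setting moves a count and are no result about the members.

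Group medians (log2) moved for mitotic genes in scramble cells with IFNγ, to -0.39 with 10 kb and 0.21 per kb. Per kb the mitotic median was -6.06e-05 in shCEBP-beta cells with IFNγ and 0.10 for untreated shCEBP-beta against scramble. The G1 median for shJunB against scramble with IFNγ was -0.22 inside the window and -0.26 per kb, and per kb it was -0.21 for untreated scramble against cytokine-experiment cells and -0.0055 for untreated shCEBP-beta against scramble.

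Log2 values that changed sign with 10 kb windows were 0.16 for Ccnb1 over 4 backgrounds, 0.25 and 0.31 for Bub1 (IL-4 2 h and 4 h), -0.27 for Pcna (both against IFNγ, 4 h), -0.15 for Cdc20 (scramble against cytokine-experiment cells), -0.44 for Aurkb (shJunB against scramble with IFNγ), and -0.23 and -0.078 for Mcm5 (shCEBP-beta with IFNγ against its untreated cells and against scramble). With union regions they were -9.68e-05 for Pcna, -0.15 for Cdc20 and -0.10 for Aurkb in the same pairs, and -0.090, -0.33, -0.25 and 0.0093 for Mcm5 (shCEBP-beta with IFNγ against scramble and against untreated, untreated scramble against cytokine-experiment cells, untreated shCEBP-beta against scramble). Inside the window they were -0.43 for Ccnd1 and -0.32 for Cdkn1a (shCEBP-beta with IFNγ) and -0.31 for Cdkn1a (against scramble with IFNγ). Per kb they were 0.82, 0.50 and 0.73 for Aurkb (IFNγ, IL-4 and both, 2 h), 0.026 for Aurkb, 0.44 for Cdc20 and 0.021 for Mcm7 (scramble with IFNγ), -0.46 and -0.13 for Aurkb (shJunB and shCEBP-beta against scramble with IFNγ), -0.059 and -0.023 for Ccne1 (IFNγ and both, 4 h), -0.092 for Ccne2 (IL-4 4 h), -0.43 for Ccnd1 and -0.30 for Cdkn1a (shCEBP-beta with IFNγ), -0.39 for Cdkn1a (against scramble), -0.12 for Ccnd2 and -0.36 for Cdc20 (scramble against cytokine-experiment cells, untreated), -0.027 for Ccnb1 (untreated shJunB) and 0.0095 for Cdc20 (untreated shCEBP-beta).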
